A study of Homo sapiens with 34 samples.

Results

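SOX7, SOX17 and SOX18 form the SOXF group of SOX transcription factors. They were taken by symbol from the expression table of a cytokine-free blood differentiation of human embryonic stem cells, as 3 of its 20255 genes, and all 3 passed the filter on low values that left 19788 genes for testing. The cells were H1, an established human embryonic stem cell line, so each replicate is a culture of the same line. H1 cells were grown as embryoid bodies and differentiated in defined medium without haematopoietic cytokines, with BMP4 and VEGF while the bodies attached and with VEGF as the only added growth factor afterwards. RNA was sequenced from 1 undifferentiated sample, from unsorted cultures of days 0, 2 and 4, and from sorted CD43- and CD43+ fractions of days 6, 9 and 12, with 3 replicates for each population after the undifferentiated one. On day 16 the sort also used CD45, so that the day 16 CD43- cells are CD43-CD45- and the day 16 CD43+ cells are CD43+/CD45+. CD43 is a surface glycoprotein of blood cells, and its gene is SPN.

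SOXF factors bind DNA through an HMG box, a domain that bends the double helix, and are known as regulators of endothelial identity, of arterial and lymphatic fate and of vessel integrity. SOX17 is also a core factor of definitive endoderm and marks haemogenic endothelium, the endothelial cells from which blood cells bud. In the mouse embryo, SOX7 and SOX17 decline as blood cells leave the endothelium, and keeping either of them on holds back blood differentiation. VE-cadherin (CDH5), claudin-5 (CLDN5) and the Notch ligand DLL4 are among the endothelial genes known to be bound or activated by SOXF factors.

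The 3 genes lie at separate loci of GRCh38. SOX7 (ENSG00000171056) spans chr8:10723768-10730512 on the minus strand, SOX17 (ENSG00000164736) spans chr8:54457935-54460888 on the plus strand, and SOX18 (ENSG00000203883) spans chr20:64047582-64049641 on the minus strand. GENCODE v29 gives each gene 1 transcript with 2 exons, of 3216, 2342 and 1864 bases, and the GC content listed for them was 52.16%, 59.44% and 70.68%. Related genes can share reads, so the coding stretch in which SOX17 and SOX18 are most alike was compared with SOX7 as well. Over these 210 bases, which lie in the HMG box, SOX17 and SOX18 had 187 identical bases, SOX7 and SOX17 had 185, and SOX7 and SOX18 had 177. In SOX18 the stretch runs over an intron, at chr20:64048859-64049264 on the minus strand of GRCh38, and 171 of its bases were shared by all 3 genes. The whole transcripts held few identical runs of 25 bases: 1 was shared by SOX7 and SOX17, 7 by SOX7 and SOX18, and 8 by SOX17 and SOX18, out of 1840 runs in the SOX18 transcript. Overlapping genes were also looked at, since the strand used in counting is not stated. CTD-2135J3.4, which overlaps SOX7 on the same strand, had values between 0 and 48, and CTD-2135J3.3, which overlaps it on the other strand, had values between 0 and 14. TCEA2 starts 195 bases from SOX18 on the other strand and had values between 484 and 994.

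The table gives tag counts after GC normalization, as whole numbers, and the differences below are log2 fold changes of (value + 1) from limma, a linear model fitted over all tested genes. Every one of the 34 samples held the same set of values in another order, so a value gives little more than the rank of a gene within its sample. A gene was called when its p, adjusted by the Benjamini-Hochberg method, was below 0.05 and its change above 4-fold. The sorted fractions matched their labels: SPN stood between 2338 and 9460 in the CD43+ samples and between 18 and 328 in the CD43- samples. The CD43- fraction held RNA of several cell types. Its mesenchymal genes, 14 in the list used, summed to between 236982 and 421396 per sample, and its 12 blood genes summed to between 218 and 694 on days 6 and 9, to between 344 and 9679 on day 12 and to between 8774 and 25299 on day 16, against at least 114115 in every CD43+ sample. In such bulk samples, fewer cells of a type and less RNA per cell cannot be told apart. The day 6 CD43- replicates also differed among themselves, as the 18 endothelial genes summed to between 57476 and 276086 there, with the lowest sum in replicate 3.

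SOX17 was the first of the 3 to appear. It had values of 1, 2 and 1 in the day 0 samples and 2 in the undifferentiated sample, and of 994, 1128 and 1222 on day 2. All day 2 samples were thus in another range than every earlier sample, and the rise was 8.92 ± 0.56 (SE) on the log2 scale with an adjusted p of 1.12e-12 in limma. SOX7 had values of 28, 46 and 28 on day 0 and 137, 118 and 146 on day 2. Its rise of 1.98 ± 0.36 had an adjusted p of 8.78e-05 in limma but stayed just under 4-fold, so it was not called. SOX18 was at 6, 5 and 3 on day 0 and at 12, 20 and 22 on day 2, with a log2 difference of 1.74 ± 0.43 (adjusted p = 0.00198, limma) that was also under 4-fold. Thus 1 of the 3 genes was called on day 2, where 4.4% of all tested genes were called higher and 3.48% lower.

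Day 2 was also the time at which mesoderm and part of the endoderm genes rose. Of 11 mesoderm genes tested, 10 were called higher on day 2, with a median log2 fold change of 8.71 against -0.01 over all genes, among them MIXL1, a primitive streak factor, at 8.71. Of 17 endoderm genes, 7 were called higher and 1 lower. GATA6 rose by 10.46 and GATA4 by 8.36 on the log2 scale, which are factors of endoderm and of cardiac mesoderm, and CXCR4, a chemokine receptor used to sort endoderm, rose by 2.60. The other endoderm genes did not all move with them: FOXA2, a defining endoderm factor, had a log2 difference of 1.42 and HHEX of 0.54, neither called, and AFP, a fetal liver protein, fell by 2.13. The endothelial genes had not yet moved together, with 1 of 18 called higher, 1 lower and a median of -0.60.

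SOX7 and SOX18 rose on day 4, while SOX17 did not. SOX7 reached 1862, 2106 and 1690, a rise of 3.81 ± 0.36 on the log2 scale over day 2 (adjusted p = 2.95e-09, limma). SOX18 reached 128, 188 and 68, a rise of 2.69 ± 0.43 (adjusted p = 1.30e-05, limma). SOX17 was at 437, 444 and 366, below all 3 day 2 samples, with a log2 difference of -1.42 ± 0.56 and an adjusted p of 0.0496 in limma, under 4-fold and not called. Hence 2 of the 3 genes were called higher and 0 lower, where 4.97% of all tested genes were called higher and 4.53% lower.

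Endothelial genes rose in the same interval. Of the 18, 12 were called higher on day 4 and 0 lower, with a median log2 fold change of 3.51 against -0.03 over all genes. PECAM1, the adhesion molecule CD31, rose by 8.88, CDH5 by 7.06, ERG, an ETS factor of endothelium, by 6.12, and TEK, the angiopoietin receptor, by 4.71. KDR, the VEGF receptor, had a log2 difference of 1.48 and was not called. Mesoderm genes went the other way, with 7 of 11 called lower and 1 higher. To set the 3 SOXF genes beside each other, their values were divided by transcript length. This is a rough guide only, since the values are close to ranks and were normalized for GC content, which differs between these genes. Per kilobase of transcript the mean day 4 value was 586 ± 65.0 (SD, n = 3) for SOX7, 177 ± 18.4 for SOX17 and 68.7 ± 32.2 for SOX18. On day 2 SOX17 had been the highest of them with 476 ± 48.9 against 41.6 ± 4.44 for SOX7 and 9.66 ± 2.84 for SOX18.

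**Figure D1:**
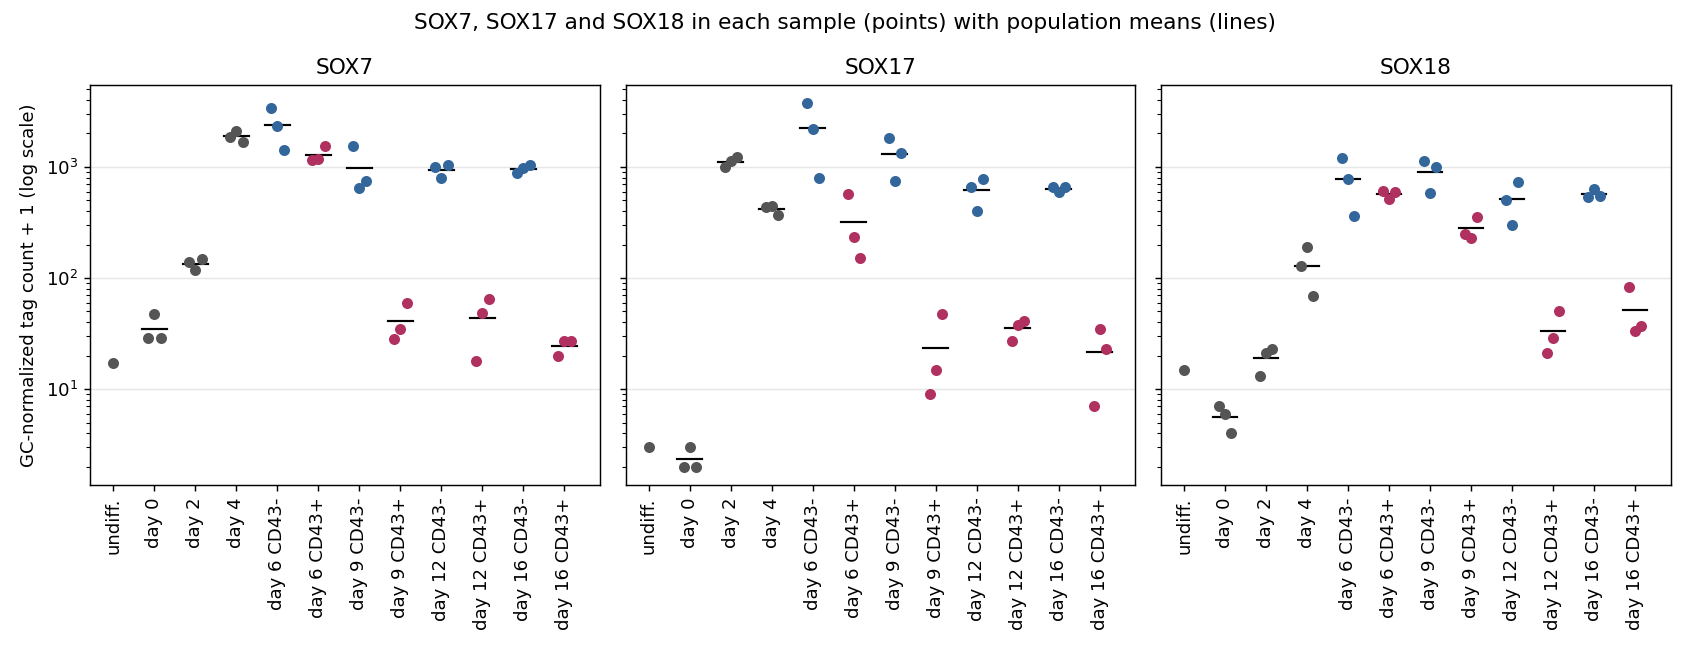
GC-normalized tag count + 1 on a log axis for SOX7, SOX17 and SOX18 (panels) in each of 34 samples (points), with the mean of each population as a line; grey points are unsorted cells, blue points CD43- cells and red points CD43+ cells. SOX17 is high from day 2 and SOX7 from day 4, and from day 9 the red points of SOX7 and SOX17 lie between 6 and 64 while those of SOX18 stay between 230 and 355 on day 9.

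On day 6, when CD43+ cells were first sorted, the 3 genes differed in how far apart the fractions were. The genes were put forward with their lower level in CD43+ cells known, so the CD43 differences that follow are descriptions and carry no p-value. SOX7 was at 3410, 2312 and 1432 in CD43- cells and at 1142, 1171 and 1526 in CD43+ cells. These ranges overlapped, and the log2 difference was -0.82 ± 0.36 (95% interval -1.56 to -0.08). SOX17 was at 3750, 2183 and 798 in CD43- cells and at 575, 235 and 151 in CD43+ cells, with no overlap and a log2 difference of -2.77 ± 0.56. SOX18 was at 1193, 778 and 358 in CD43- cells and at 608, 509 and 596 in CD43+ cells. The CD43+ values of SOX18 lay inside the range of the CD43- values, and its difference of -0.28 ± 0.43 (95% interval -1.16 to 0.59) turned to 0.11 without CD43- replicate 1. In each of the 3 genes the CD43- values were ordered like the summed endothelial genes, with replicate 3 the lowest, and the part of the endothelial share in these values was not tested.

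Measured against day 4, SOX18 rose in both day 6 fractions. In CD43+ cells it was higher by 2.26 ± 0.43 on the log2 scale (adjusted p = 7.38e-05, limma), although without day 4 replicate 3, the lowest of the 3 day 4 values, the rise was 1.87 and under 4-fold. In CD43- cells it was higher by 2.54 ± 0.43 (adjusted p = 2.64e-05, limma). SOX17 rose in CD43- cells by 2.17 ± 0.56 (adjusted p = 0.00264, limma), which fell to 1.67 and under 4-fold without CD43- replicate 1. In CD43+ cells its log2 difference from day 4 was -0.60 ± 0.56 (adjusted p = 0.391, limma). SOX7 was called in neither fraction, with -0.57 ± 0.36 in CD43+ cells (adjusted p = 0.194, limma) and 0.26 ± 0.36 in CD43- cells (adjusted p = 0.595, limma). That makes 1 of the 3 genes called higher in CD43+ cells, where 6.8% of all tested genes were called higher and 7.73% lower, and 2 of the 3 in CD43- cells, where 4.94% were called higher and 2.77% lower.

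DLL4 and CLDN5, endothelial genes known as SOXF targets, rose on day 6 from low values. Other targets had moved earlier. Of the 9 in the list, 4 were called higher and 0 lower on day 4, beside 4.97% and 4.53% of all tested genes. Some of these 9, CDH5 and CLDN5 among them, are also endothelial genes counted above. DLL4, which stood between 10 and 20 on day 4, rose by 8.32 in CD43- cells and by 6.36 in CD43+ cells, and CLDN5, between 2 and 8 on day 4, rose by 7.52 and 5.89. CDH5 rose by 2.27 in CD43- cells and had a log2 difference of 1.19 in CD43+ cells. From day 4 to day 6, 4 of the 9 targets were called higher in CD43- cells and 0 lower, beside 4.94% and 2.77% of all genes. In CD43+ cells 3 were called higher and 1 lower, beside 6.8% and 7.73%. The lower one was VCAM1, an adhesion molecule, at -3.04, with values of 4 to 15 on day 4 and 0 in CD43+ cells. Between the fractions on day 6, 2 of the 9 targets were called lower in CD43+ cells and 0 higher, with a median log2 difference of -1.63, against 7.85% of all genes called lower, 4.69% called higher and a median of 0.14. At the same time all 10 blood transcription factors of the list were called higher in CD43+ cells, with RUNX1, the factor needed for blood cells to form from endothelium, at 3.64, and GFI1, a repressor that acts downstream of it, at 6.49. The day 6 CD43+ cells thus held SOX7, SOX18, CDH5 and RUNX1 RNA together at the level of the population: CDH5 was at 5644, 4481 and 6144 and RUNX1 at 6910, 6575 and 7899. Whether single cells held them together cannot be read from pooled cells. RNA of mesenchymal genes was present in these CD43+ samples too. The 14 genes summed to between 67304 and 168644 there, against at least 236982 in the day 6 CD43- samples.

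From day 6 to day 9, SOX7 and SOX17 dropped in CD43+ cells and SOX18 moved less. SOX7 was at 27, 34 and 58 in the day 9 CD43+ samples, with a log2 fold change of -5.04 ± 0.36 (adjusted p = 6.25e-11, limma). SOX17 was at 8, 14 and 46, with a log2 fold change of -3.89 ± 0.56 (adjusted p = 5.47e-06, limma). SOX18 was at 249, 230 and 355, a log2 difference of -1.06 ± 0.43 that was not called (adjusted p = 0.0622, limma). All 3 day 9 values of each gene lay under its 3 day 6 values. With 2 of the 3 genes called lower, 3.97% of all tested genes were called lower and 3.56% higher. The day 9 range of SOX7 overlapped that of day 0, which ran from 28 to 46. In the same step the summed mesenchymal genes of CD43+ samples also dropped, from at least 67304 to at most 23752. The part of this loss in the drops of SOX7 and SOX17 was not tested.

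In CD43- cells these genes moved less over the same days. SOX7 was at 1531, 644 and 738 on day 9, with a log2 difference of -1.32 ± 0.36 from day 6 (adjusted p = 0.0265, limma) that was under 4-fold and not called. SOX17 was at 1837, 743 and 1340 and SOX18 at 1125, 584 and 996, with adjusted p of 0.603 and 0.735 in limma. None of the 3 was called by limma, while 1 of them had an unadjusted p under 0.05, with 1.1% of all tested genes called higher and 0.657% lower. CD43- cells later gave SOX7 values of 1006, 791 and 1042 on day 12 and 884, 972 and 1037 on day 16. SOX17 was at 658, 400 and 782 and then at 652, 594 and 652. SOX18 was at 504, 302 and 724 and then at 533, 627 and 541. In the steps of CD43- cells after day 9, 0 of the 3 were called by limma (adjusted p between 0.118 and 0.953) and 0 had an unadjusted p under 0.05, where 4.52% of genes were called higher and 2.8% lower on day 12, and 4.46% and 5.97% on day 16.

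The difference between the fractions therefore widened by day 9. In the day 9 samples the log2 difference of CD43+ from CD43- cells was -4.54 ± 0.36 for SOX7, -6.05 ± 0.56 for SOX17 and -1.67 ± 0.43 for SOX18, with no overlap between the fractions for these genes. As means, SOX7 was 971 ± 487 (SD, n = 3) in CD43- cells and 39.7 ± 16.3 in CD43+ cells, SOX17 1307 ± 548 and 22.7 ± 20.4, and SOX18 902 ± 283 and 278 ± 67.4. Whether the CD43 difference had changed between days 6 and 9 was tested as an interaction and called at an adjusted p below 0.05. This change was -3.72 ± 0.51 for SOX7 (adjusted p = 8.62e-06, limma) and -3.28 ± 0.80 for SOX17 (adjusted p = 0.00440, limma), and both were called, beside 18.2% of all genes. For SOX17, a fit of only the populations compared gave an adjusted p of 0.0554. For SOX18 it was -1.38 ± 0.60 (adjusted p = 0.113, limma) and not called, and without day 6 CD43- replicate 1 it was -1.77 with an adjusted p of 0.0438. As the CD43 difference was known when the genes were chosen, these p-values are no independent evidence of its direction.

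**Figure D2:**
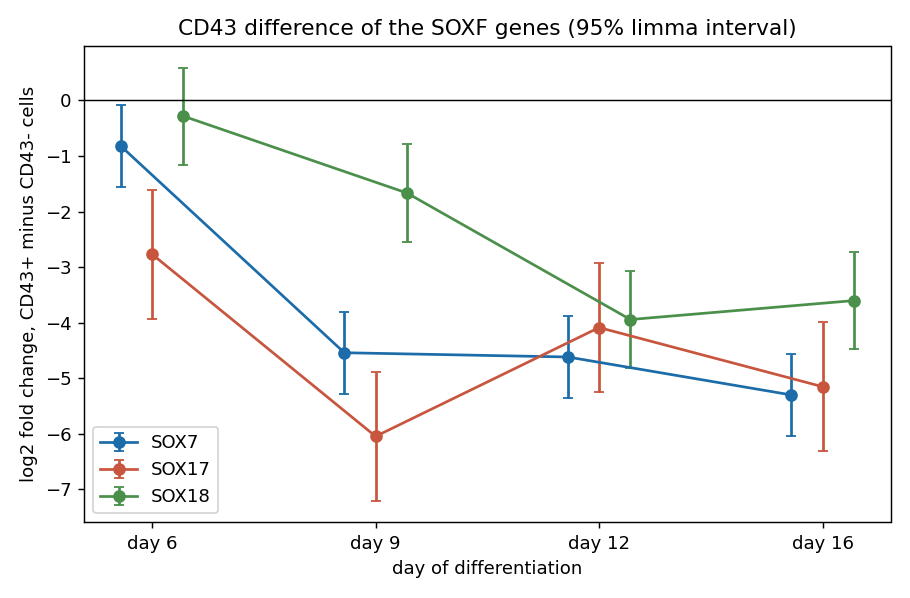
Log2 fold change of CD43+ against CD43- cells (vertical axis) for SOX7, SOX17 and SOX18 on days 6, 9, 12 and 16 (horizontal axis), with 95% intervals from limma over 3 replicates per population. SOX7 goes from -0.82 to -4.54 between days 6 and 9 and SOX17 from -2.77 to -6.05, while SOX18 goes from -1.67 to -3.94 between days 9 and 12.

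SOX18 fell in CD43+ cells in the next step. Its day 12 CD43+ values were 20, 28 and 49, a log2 fold change of -3.13 ± 0.43 from day 9 (adjusted p = 6.57e-07, limma). SOX7 was at 17, 47 and 64 and SOX17 at 26, 37 and 40 on day 12, overlapping their day 9 values, with log2 differences of -0.01 ± 0.36 and 0.91 ± 0.56 (adjusted p = 0.987 and 0.173, limma). Here 1 of the 3 genes was called lower, beside 6.54% of all tested genes, and 0 higher, beside 8.45%. Between days 9 and 12 the CD43 difference changed by -2.28 ± 0.60 for SOX18 (adjusted p = 0.00537, limma), called like 27.4% of all genes. The change was -0.08 ± 0.51 for SOX7 and 1.96 ± 0.80 for SOX17 (adjusted p = 0.934 and 0.0680, limma), the second with an adjusted p of 0.0396 without day 9 CD43- replicate 2 and 0.0123 without day 9 CD43+ replicate 3, which had held the highest SOX17 value of its group.

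On day 12 the log2 difference of CD43+ from CD43- cells was -4.62 ± 0.36 for SOX7, -4.09 ± 0.56 for SOX17 and -3.94 ± 0.43 for SOX18. On day 16 it was -5.30 ± 0.36 for SOX7, -5.15 ± 0.56 for SOX17 and -3.60 ± 0.43 for SOX18. The day 16 CD43+ values were 19, 26 and 26 for SOX7, 6, 34 and 22 for SOX17, and 82, 32 and 36 for SOX18, and each overlapped its day 12 range. Between days 12 and 16 in CD43+ cells, 0 of the 3 were called by limma (adjusted p between 0.152 and 0.288) and 0 had an unadjusted p under 0.05, where 3.79% of genes were called higher and 5.26% lower, and a change of the CD43 difference was not called for any of the 3 either (adjusted p between 0.387 and 0.749, limma), while 17% of all genes were. Blood RNA in the CD43- fraction was higher on these days than on days 6 and 9, as given above, and its part in the sizes of these differences was not tested.

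The ratio of SOX18 to SOX7 within each sample does not depend on a factor that multiplies all values of a sample. It does depend on the GC normalization and on the set of values shared by all samples. The GC content was 52.16% for SOX7, 59.44% for SOX17 and 70.68% for SOX18, and the part of this in the ratios was not tested. In CD43+ cells the log2 level of SOX18 minus that of SOX7 was -1.15 ± 0.23 (SD, n = 3), 2.82 ± 0.30 and -0.29 ± 0.48 on days 6, 9 and 12. All day 9 values, between 2.59 and 3.16, lay above those of day 6 and of day 12. The level of SOX18 minus that of SOX17 was 1.06 ± 0.95, 3.89 ± 0.94 and -0.16 ± 0.38 on the same days, again with day 9 above the others. SOX17 minus SOX7 was -2.21 ± 1.17, -1.06 ± 0.67 and -0.14 ± 0.65, and these values overlapped from each day to the next. The exact two-sided permutation p was 0.1 for both steps of the SOX18 ratios, the smallest that 3 against 3 samples allow, and 0.3 for both steps of SOX17 minus SOX7. In CD43- cells SOX18 minus SOX7 was -1.69 ± 0.26, -0.05 ± 0.44, -0.97 ± 0.43 and -0.77 ± 0.16 on days 6, 9, 12 and 16. Between the fractions on day 9 it differed by 2.88 on the log2 scale, without overlap.

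The order of the 12 populations by mean level was not the same for the 3 genes. SOX7 was highest in day 6 CD43- cells (2385 ± 991, SD, n = 3) and day 4 cells (1886 ± 209), which overlapped, then came day 6 CD43+ cells (1280 ± 214) and the later CD43- populations, which also overlapped. SOX17 was highest in day 6 CD43- cells (2244 ± 1477), day 9 CD43- cells and day 2 cells (1115 ± 115), neighbours that overlapped in this order. For SOX18 the 6 highest populations, from day 9 CD43- cells at 902 ± 283 to day 9 CD43+ cells at 278 ± 67.4, each overlapped the next, and a gap followed before day 4 at 128. Of the 11 neighbouring pairs in the order, 6 overlapped for SOX7, 8 for SOX17 and 9 for SOX18. Among all 20255 genes of a sample, SOX7 was between the 86th and 95th percentile in day 6 CD43- cells and between the 27th and 30th in day 16 CD43+ cells.

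The other endothelial genes also fell in CD43+ cells, and the SOXF genes were compared with them. Of 18 endothelial genes, the numbers called lower in CD43+ than in CD43- cells were 1, 11, 11 and 12 on days 6, 9, 12 and 16, and 0 were called higher on these days. Of all genes, 7.85%, 12.8%, 14.4% and 13.6% were called lower on days 6, 9, 12 and 16, and 4.69%, 8.65%, 11.8% and 12.2% higher. The medians of the 18 were -1.10, -3.02, -2.84 and -3.43, against 0.14, 0.24, 0.22 and 0.14 over all genes. CDH5 differed by -3.99 on day 9 and -4.97 on day 16 and KDR by -3.05 and -4.93, while PECAM1, which blood cells also carry, differed by -0.30 and -0.80 and ERG by -1.92 and -1.42, not called.

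Against the mean log2 level of these 18 genes in the same sample, SOX7 and SOX17 fell further in CD43+ cells and SOX18 did not on day 9. The level of SOX7 relative to them was -0.50 ± 0.48 (SD, n = 3) in CD43- cells and -0.34 ± 0.38 in CD43+ cells on day 6, with overlap, and -1.82 ± 0.30 and -3.79 ± 0.33 on day 9, without. SOX17 was at -0.76 ± 0.06 and -2.55 ± 0.79 on day 6 and at -1.38 ± 0.23 and -4.86 ± 0.98 on day 9. In the day 6 CD43- samples this quantity of SOX17 lay between -0.81 and -0.70, although the SOX17 values themselves ran from 798 to 3750. SOX18 was at -2.19 ± 0.23 in CD43- cells and -1.49 ± 0.16 in CD43+ cells on day 6, and at -1.87 ± 0.18 and -0.97 ± 0.07 on day 9, so it was higher in CD43+ cells by 0.70 and 0.91 on the log2 scale. The day 6 value shrank to 0.15 when the median of the 18 genes took the place of their mean. On days 12 and 16 SOX18 relative to the endothelial genes overlapped between the fractions, with differences of -1.09 and -0.60, whereas the differences of SOX7 were -1.76 and -2.30 and those of SOX17 -1.23 and -2.15, without overlap. These are descriptions without a test. The 18 genes did not move alike, so the relative levels depend on which genes the list holds. On day 9, 11 of them were called lower in CD43+ cells and 7 were not called. PECAM1 had means of 5406 in CD43- and 4174 in CD43+ cells on that day, and CLDN5 of 1346 and 44.7.

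**Figure D3:**
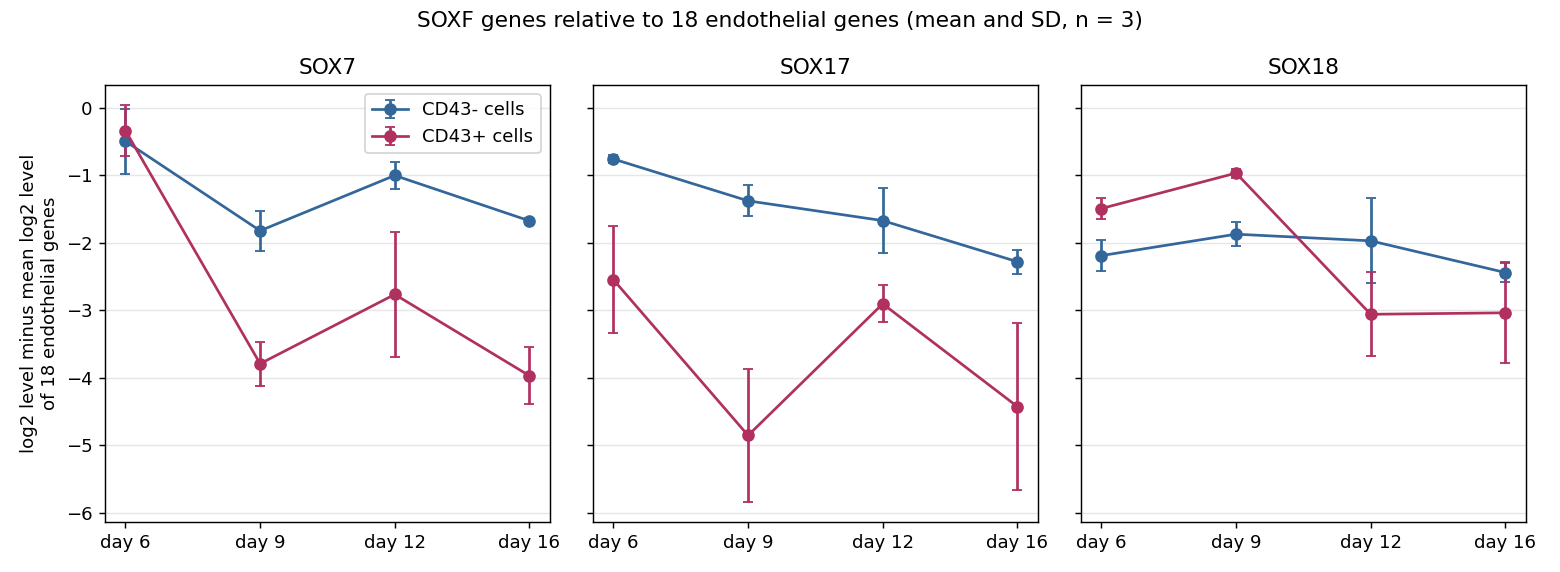
Log2 level of SOX7, SOX17 and SOX18 minus the mean log2 level of 18 endothelial genes in the same sample (vertical axis), on days 6, 9, 12 and 16 (horizontal axis), as mean and SD of 3 replicates for CD43- cells (blue) and CD43+ cells (red). SOX17 lies lower in CD43+ cells from day 6 and SOX7 from day 9, while SOX18 lies 0.70 higher on day 6 and 0.91 higher on day 9 and overlaps between the fractions on days 12 and 16.

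Genes known to act with or under the SOXF factors were followed through the same comparisons. CDH5, CLDN5, TEK and ROBO4 are in both the target list and the endothelial list, so the counts of the lists are not independent. Of the 9 targets, 6, 8 and 6 were called lower in CD43+ cells on days 9, 12 and 16 and 0 higher, beside 12.8%, 14.4% and 13.6% of all genes lower and 8.65%, 11.8% and 12.2% higher. The medians of the 9 were -3.99, -5.11 and -3.53. CLDN5, a tight junction protein, differed by -5.55 on day 9 and DLL4 by -5.70. DLL4 was at 5130, 3322 and 3819 in CD43- cells and at 36, 67 and 182 in CD43+ cells on that day. RASIP1, which is needed for vessel lumens, differed by -0.30, -1.85 and -4.17 on days 6, 9 and 12, and TEK by -1.65, -3.28 and -5.60. VCAM1 differed by -4.81, -4.95 and -5.11 and then by -0.81 on day 16. Its values were very low, at 0 in day 6 CD43+ cells, 1 to 7 on day 9 and 0 to 2 on day 12. In day 6 CD43- cells they were 18 to 34, so the sizes of these differences are uncertain. NOTCH1, a receptor of DLL4, was called on none of these days and differed by between -1.43 and -0.01. PROX1, the lymphatic factor that SOX18 activates in embryonic veins, differed by 1.62, 0.33, -3.27 and 0.41 on days 6, 9, 12 and 16, and of these the day 12 value alone was called. Between days 6 and 9 within CD43+ cells, 5 of the 9 targets were called lower, where 3.97% of all genes were called lower and 3.56% higher, with log2 fold changes of -3.45 for CDH5, -4.10 for DLL4, -3.32 for CLDN5, -2.24 for TEK and -2.13 for ROBO4, a guidance receptor of endothelium that was named after its values were seen.

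Most arterial and venous genes were also lower in CD43+ cells from day 9. Of 12 arterial genes, 6, 8, 7 and 7 were called lower in CD43+ cells on days 6, 9, 12 and 16, and 1, 0, 1 and 1 higher, where 7.85%, 12.8%, 14.4% and 13.6% of all genes were lower and 4.69%, 8.65%, 11.8% and 12.2% higher. EFNB2, the arterial ephrin, differed by -2.36 on day 6 and -5.13 on day 9, and HEY1, a Notch-induced repressor, by -2.58 and -5.25. GJA4, a gap junction protein of arteries, was not called on any of these days and differed by between -1.99 and -1.11. The 1 gene called higher on days 6, 12 and 16 was BMX, a kinase named after its values were seen, at 2.15 on day 6. Of 8 venous and lymphatic genes, 2, 5, 7 and 6 were called lower on these days and 0 higher, against the same shares of all genes, among them NR2F2, the venous regulator, at -2.64 on day 6.

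Endoderm genes, of which SOX17 is one of the best known, were lower in CD43+ than in CD43- cells. The 17 genes of the list summed to between 7804 and 9012 in day 6 CD43- samples and to between 16159 and 25070 in day 16 CD43- samples, above the 12327 to 13163 of day 2, and to between 1257 and 4113 in CD43+ samples. Most of the day 16 CD43- sum was AFP, at 10084 to 17368 there and 1 to 4 on day 2. Means of GATA4 (524), GATA6 (1329) and FOXA2 (9) were lower there than on day 2 (760, 2409 and 33.7). Those of CXCR4 (1473) and HHEX (574) were higher (306 and 189 on day 2). Of the 17, 9, 11, 10 and 10 were called lower in CD43+ cells on days 6, 9, 12 and 16, and 0, 1, 2 and 1 higher, beside 7.85%, 12.8%, 14.4% and 13.6% of all genes lower and 4.69%, 8.65%, 11.8% and 12.2% higher. FOXA2 was at 69, 150 and 223 in day 6 CD43- cells and at 10, 3 and 2 in CD43+ cells. SOX17 in the same CD43- samples ran from 3750 in replicate 1 to 798 in replicate 3. The endoderm genes had no common order there. CXCR4 fell like SOX17, at 3838, 1492 and 444, and GATA6 rose like FOXA2, at 1164, 1226 and 2155. GATA4 followed neither, at 388, 900 and 582. GATA4 differed by -1.45 on day 6 and -4.62 on day 9 and AFP by -5.85 and -5.87, while HHEX, which is shared by endoderm, endothelium and blood, differed by 0.45 and 0.02. Endoderm and mesenchymal genes thus moved between the fractions too, and their part in the SOX17 difference was not tested.

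Most other SOX genes were also lower in CD43+ cells, by different amounts. Of 14 tested, 10, 10, 12 and 12 had a negative log2 difference on days 6, 9, 12 and 16. On these days 4, 4, 6 and 7 were called lower and 0 higher. Of all genes, 7.85%, 12.8%, 14.4% and 13.6% were called lower and 4.69%, 8.65%, 11.8% and 12.2% higher. Their medians were -0.84, -0.95, -1.64 and -2.56, against 0.14, 0.24, 0.22 and 0.14 over all genes. SOX9, the factor of cartilage and other mesenchyme, differed by -3.08 on day 6 and -6.06 on day 9. SOX11, a factor of progenitor cells, differed by -0.85, -1.90, -4.32 and -3.25 over the 4 days. SOX4, which many progenitors express, was not called and differed by between -1.80 and -0.44. SOX2, the pluripotency factor, had log2 fold changes of -3.41 on day 2, when SOX17 rose, and -3.85 on day 4.

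**Figure D4:**
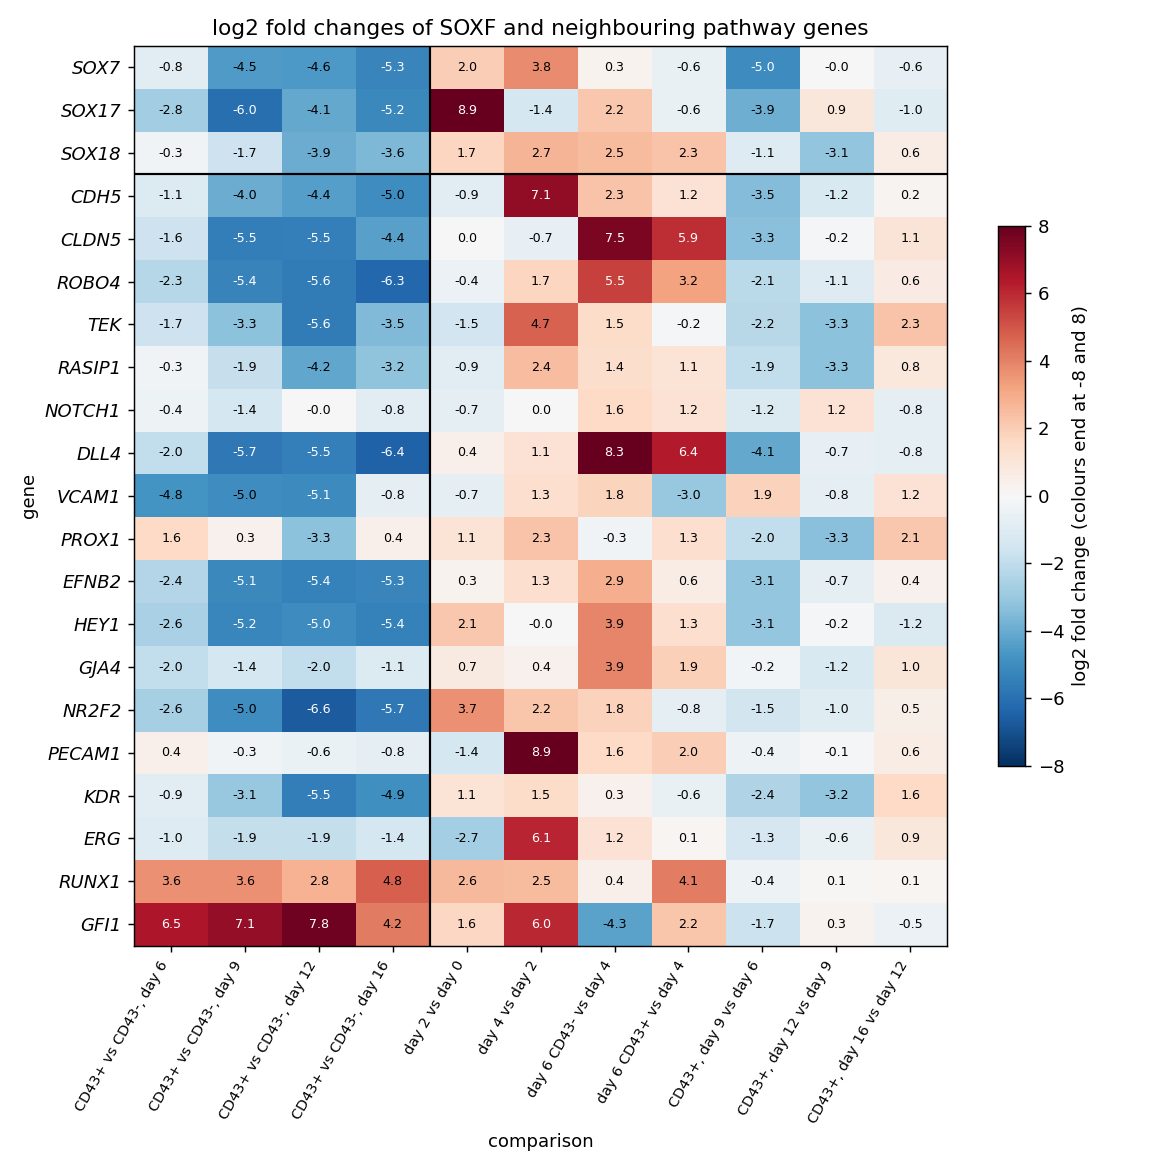
Log2 fold changes (colour and printed value) of the 3 SOXF genes and 18 related genes (rows) in 4 CD43 comparisons and 7 day steps (columns), with values that were not called included. The SOXF rows, DLL4 and CLDN5 are blue from day 9 in the CD43 comparisons while RUNX1 and GFI1 are red, and SOX17 is the SOXF gene with the deep red cell on day 2 (8.92).

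Over the 33 replicated samples, the log2 levels of SOX7 and SOX17 had a Pearson correlation of 0.83, those of SOX7 and SOX18 of 0.73, and those of SOX17 and SOX18 of 0.64. These correlations are descriptions, since the samples share populations and days. The 5 genes closest to each of them by the same measure, among 19788, are given next. For SOX7 they were KIAA1462 (0.972), HAPLN1 (0.953), COL1A2 (0.950), PCDH17 (0.949) and GREB1L (0.940). For SOX17 they were ITGA5 (0.944), PLXNA2 (0.943), GATA4 (0.930), MMP14 (0.925) and ADAMTS9 (0.916), the last of which had a correlation of 0.931 with SOX7. For SOX18 they were SHANK3 (0.954), TGM2 (0.948), RHOJ (0.946), TIE1 (0.944) and MAPK11 (0.942). TIE1, an orphan receptor of endothelium, was at 3684, 4374 and 4241 in day 9 CD43+ cells and at 853, 1523 and 1600 in day 12 CD43+ cells, where SOX18 was also lower. The collagen gene COL1A2, like SOX7, fell between days 6 and 9 in CD43+ cells, by 4.38 on the log2 scale. It stood at 48056 in every CD43- sample, without any spread, and between 37186 and 90700 in day 6 CD43+ cells. The highest value of any gene was 90700, so its correlation with SOX7 says little about the CD43- samples.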

How the data were processed

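The authors aligned the RNA sequencing reads with bowtie2 and counted them with RSEM, and the labels also list STAR 2.7. The authors then normalized the tag counts for GC content and between samples with EDASeq, and the deposited whole-number values are treated as a score, not as raw counts. The deposited GC percent of each gene was used only as context. Sorted values were the same in all 34 samples (median 197, 1292 genes at 0), so the depth of a sample is unknown and errors come from replicates alone. RNA was sequenced at different companies, and which samples went to which is not in the labels.

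Samples were grouped by their titles. Log2(value + 1) was fitted with limma 3.58.1 (R 4.3.3) by lmFit and eBayes with a trend, for the 19788 genes that reached 10 in 3 or more samples, with 33 samples in 1 fit and no replicate block. The undifferentiated sample, without replicate, was left out of the fit. Calls needed a Benjamini-Hochberg adjusted p below 0.05 and over 4-fold, and changes of the CD43 difference needed the adjusted p only. The fit was tested on simulated data. Values per sample, ratios and exact tests used Python 3.11.15 with scipy 1.17.1. Transcripts and sequence came from GENCODE v29, on GRCh38 like the deposited coordinates. Promoters and proteins of the 3 genes were not used here.

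The 3 genes, the gene lists and the tests were chosen with earlier results of these data known. The named genes were the 3 members, the 5 genes most like each of them over 33 samples, and 30 genes of the lists chosen by name.

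The alternatives were pseudocounts of 0.1 and 10, no filter, a minimum of 100 in place of 10, median-of-ratios scaling, a replicate block, a fit restricted to the populations of a comparison, a 2-fold threshold, the median of the endothelial genes and the omission of each replicate. To see whether replicate numbers pair samples, deviations from the population mean were correlated between CD43+ and CD43- samples with the same number. All 3 pairs were over 0.1 on day 6 (0.109 to 0.199), so the numbers were taken as pairs there. On the other days they were not (0.017 to 0.078 on day 9, 0.039 to 0.108 on day 12 and -0.015 to 0.042 on day 16). Between CD43- samples of different days the same correlation ran from -0.319 to 0.181 (day 9 against 6) and from 0.023 to 0.370 (day 12 against 9). Values of this size therefore do not establish pairs, and the labels do not state them.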

Additional observations from a re-analysis of the deposited data

Results flagged for a closer look

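The 3 genes were chosen with their CD43 difference known, so the tests given here are not independent evidence of its direction. In 3 results the difference between CD43+ and CD43- cells was not the same at 2 time points by the interaction test of limma. The CD43 difference of SOX7 changed by -3.72 on the log2 scale from day 6 to day 9, from 1.86-fold to 24.5-fold lower mean values in CD43+ cells. That of SOX17 changed by -3.28 over the same days, to 57.6-fold, and lost its call in a fit of only the populations compared (adjusted p = 0.0554, limma). That of SOX18 changed by -2.28 from day 9 to day 12, from 3.24-fold to 15.8-fold.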

How the results depend on the processing

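Of the 802 alternative values computed, 784 were kept. They stayed on their side of the threshold or, without a test, within the spread between replicates. Counts of list genes were kept when within a set ratio of the main count. The filters, the replicate block and the restricted fit cannot move a log2 value. The CD43 differences, which carry no p, thus counted as kept there in advance. Of the 784, 21 changed sign, none of them a called value. One without a test was SOX7 relative to the endothelial genes on day 6, at -0.39 with their median. A replicate block in the fit changed no call of the 3 genes. On day 6 the replicate numbers were taken as pairs. The block cannot move a log2 difference (-2.77 for SOX17) in this balanced design, and the 3 genes carry no p there. At a 2-fold threshold, SOX7 (1.98) and SOX18 (1.74) on day 2, SOX17 on day 4 (-1.42) and SOX7 from day 6 to day 9 in CD43- cells (-1.32) were also called. That of SOX17 on day 4 had an adjusted p of 0.0604 with a replicate block and up to 0.123 when a replicate was left out, and that of SOX7 of 0.285 in a fit of only the populations compared and up to 0.139 when a replicate was left out. At 2-fold, on day 6, the genes called lower in CD43+ cells rose to 10 of the endothelial genes and 6 of the targets. The share of all tested genes called at 2-fold was not computed, so these counts have nothing to be set against. A pseudocount of 0.1 put SOX7 on day 2 over 4-fold (2.01). A pseudocount of 10 gave -4.86 for the CD43 difference of SOX7 on day 16. In a fit of only the populations compared, the SOX17 change between days 6 and 9 in the CD43 difference (-3.28) lost its call, with an adjusted p of 0.0554. With the median in place of the mean of the endothelial genes, SOX18 relative to them differed by 0.15 between the day 6 fractions. Calls gained at 2-fold follow from the lower threshold. The cause of the other moves was not tested.

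Leaving out each replicate in turn gave ranges of -0.76 to 0.11 for the day 6 CD43 difference of SOX18, reversed at 0.11 without CD43- replicate 1. The ranges were 1.86 to 2.21 for SOX7 on day 2, over 4-fold without day 0 replicate 2 or day 2 replicate 2, 1.67 to 2.79 for SOX17 and 1.87 to 2.60 for SOX18 from day 4 to day 6 (CD43- and CD43+ cells), -1.77 to -0.91 for the SOX18 change in the CD43 difference between days 6 and 9, and 1.44 to 2.63 for that of SOX17 between days 9 and 12. Median-of-ratios scaling moved the median of all genes by -0.14 and -0.21 in the CD43 comparisons of days 6 and 9, by 0.15 in CD43+ cells between days 9 and 12 and by 0.11 in the change of the CD43 difference over those days. It changed no call, and 3 SOX7 results that were not called changed sign with it: 0.15 from day 9 to day 12 in CD43+ cells, -0.02 between days 12 and 16 in CD43- cells and 0.03 for the change in the CD43 difference between days 9 and 12. The values are close to ranks, so a fold change of a gene at very low values, such as SOX17 on day 0, is uncertain in size.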
